A study of Mus musculus with 6 samples.

Results

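The NF-κB genes described here are 10 genes of 19069 listed over the 6 plates. They are the subunits *Rela*, *Relb*, *Nfkb1* and *Nfkb2*, the IκB family genes *Nfkbia*, *Nfkbiz* and *Bcl3*, and the feedback regulators *Tnfaip3*, *Tnip1* and *Birc3*. They were taken by name, and all 10 were found on every plate. Single cells of colon tumors raised by azoxymethane and dextran sulfate sodium (AOM/DSS) were sorted as EPCAM-, CD45- and CD31-negative cells and measured by SORT-seq, a plate-based method that counts transcripts by molecular barcodes at their 3′ ends. There was 1 plate of 384 wells for each of 3 FibCtrl mice (mice 1, 3 and 4) and 3 FibΔZeb1 mice (mice 2, 5 and 6). Both groups carried *Zeb1* fl/fl on a C57BL/6 background and had the same tumor model, and the label gives no further treatment. FibΔZeb1 mice also carried the Col6a1-Cre transgene, which deletes *Zeb1* in cells that use the *Col6a1* promoter and not in every fibroblast. FibCtrl mice lacked this transgene. The mice were age-matched littermates of both sexes. With 1 plate per animal, plate and mouse cannot be told apart.

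Of 2304 wells, 1233 had 100 to 6000 genes and under 10% mitochondrial transcripts, with 109 to 298 wells per mouse. Marker lists that hold none of the 10 genes assigned 594 wells as fibroblast-like, 436 as neutrophil-like, 69 as pericyte-like and 70 as epithelial-like. Another 14 wells were lymphocyte-like or glia-like, 50 stayed unassigned, and none was macrophage-like or endothelial-like. Neutrophil-like wells were present although CD45-positive cells had been sorted out, and their leading genes were *S100a9*, *S100a8* and *Retnlg*. Fibroblast-like wells comprised 312 iCAF-like wells (inflammatory cancer-associated fibroblasts), 176 telocyte-like wells (a subepithelial fibroblast rich in BMP and WNT ligands) and 106 wells without enough markers of either. These last wells were shallow, with a median of 2288 transcripts. Their leading genes were *Beta-s*, *Spp1* and *Pnliprp2*, which are on none of the marker lists. Fibroblast markers summed to 12212 counts per 1000000 transcripts in them, against 55987 in iCAF-like and 45952 in telocyte-like wells. Their assignment as fibroblast-like is therefore less certain. Medians were 11322 transcripts in fibroblast-like and 1451 in neutrophil-like wells. All plates use the same 384 well barcodes by design, and mouse 6 alone was sequenced in another run, so that run and mouse cannot be told apart. *Zeb1* was measured at 92.8 to 113 counts per 1000000 transcripts (CPM) in fibroblast-like wells of FibCtrl mice and at 59.3 to 67.9 CPM in those of FibΔZeb1 mice. Transcripts were summed per mouse and class, and a level in CPM is a gene's share of that sum. Each transcript molecule was counted once whatever its length. The mice are separate animals. Exact permutation tests use the mice alone, while the fitted tests (edgeR, DESeq2) also borrow a spread estimated over all genes.

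NF-κB dimers of the Rel family are held in the cytoplasm by IκB proteins until receptors of interleukin-1, tumor necrosis factor or microbial products activate the IκB kinase complex. Released dimers enter the nucleus and induce cytokines, chemokines and survival genes, and also the genes of their own inhibitors, which end the signal. In colitis-associated tumors the pathway is best known in myeloid cells, in epithelium and in inflammatory fibroblasts.

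All 10 genes were higher in neutrophil-like than in fibroblast-like wells of the same mice. The 3 with the highest ratio of mean levels were *Nfkbiz* (8.51 times), *Birc3* (7.44 times) and *Nfkbia* (6.4 times), and the lowest ratio was that of *Relb* (1.37 times). In edgeR's quasi-likelihood test with the mouse as block, 10 of 10 passed an adjusted p of 0.05, beside 27.3% of the 3932 genes tested that were called higher, 48.8% called lower and 76.1% called in either direction. The sums of the mice did not overlap between the classes for 7 of the 10 genes, all higher, beside 18.4% of tested genes higher without overlap and 40.7% lower. Every mouse was higher in neutrophil-like wells for 8 of the 10, beside 21.8% of tested genes (48.1% lower). The median log2 fold change was 1.98 over the 10 genes and -0.72 over all tested genes. Scaling by library size alone moved the latter to -1.06 and left 9 of the 10 genes called, all higher. The plot of levels by class shows the mice one by one.

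**Figure D1:**
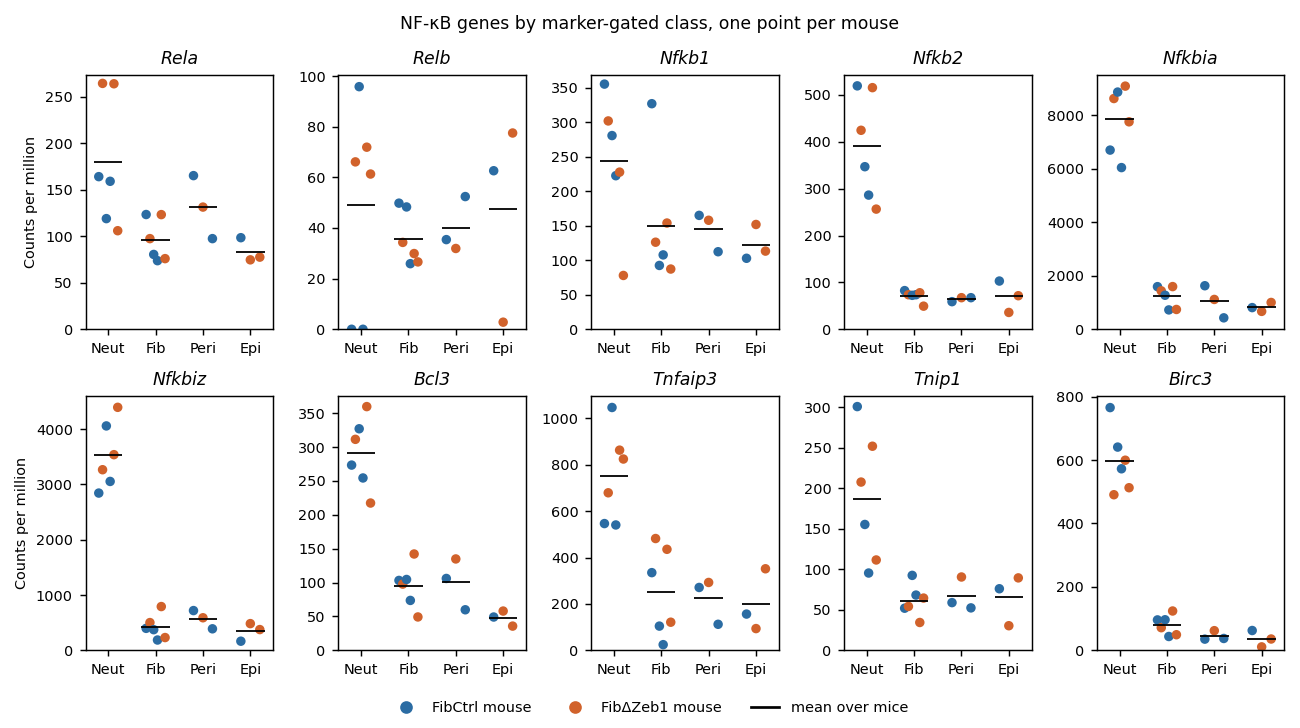
Level of each gene in CPM (linear axis from 0) in neutrophil-like (Neut), fibroblast-like (Fib), pericyte-like (Peri) and epithelial-like (Epi) wells, summed per mouse with at least 10 wells. Each point is 1 mouse, blue for FibCtrl and orange for FibΔZeb1, and the black line is the mean over mice. For *Nfkb2*, *Nfkbia*, *Nfkbiz*, *Bcl3*, *Tnfaip3*, *Tnip1* and *Birc3* every neutrophil-like point lies above every fibroblast-like point, while *Rela*, *Relb* and *Nfkb1* overlap.

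Among the IκB family genes, *Nfkbia* encodes the inhibitor that is resynthesized first after activation and carries dimers back out of the nucleus. It was the most abundant of the 10 genes in both classes. In neutrophil-like wells it was measured at 6698, 8866 and 6043 CPM in FibCtrl mice 1, 3 and 4 and at 8625, 9089 and 7754 CPM in FibΔZeb1 mice 2, 5 and 6. In fibroblast-like wells the same mice had 1593, 1271 and 723 CPM and 1436, 1595 and 740.0 CPM. The lowest neutrophil-like value was therefore above the highest fibroblast-like value, and the ratio within a mouse ran from 4.21 to 10.5 times. The log2 fold change was 2.91 ± 0.25 (SE), with an adjusted p of 7.7e-12 in edgeR's test. An exact sign-flip permutation test over the 6 mice (two-sided) gave p = 0.0312, the smallest that 6 pairs allow.

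*Nfkbiz* encodes a nuclear IκB protein that is needed for a later set of target genes such as *Lcn2* and *Il6*. Its level in neutrophil-like wells ran from 2843 CPM (mouse 1) over a median of 3401 CPM to 4393 CPM (mouse 6), against 187 CPM (mouse 4) over 386 CPM to 792 CPM (mouse 5) in fibroblast-like wells. Again the classes did not overlap. The log2 fold change of 3.38 ± 0.29 was the highest of the 10 genes (edgeR adjusted p = 6.3e-12). *Bcl3*, a nuclear IκB protein that binds homodimers of the *Nfkb1* and *Nfkb2* products, ran from 217 to 360 CPM in neutrophil-like wells and from 49.3 to 142 CPM in fibroblast-like wells. Its log2 fold change was 1.82 ± 0.26 (edgeR adjusted p = 2.9e-07).

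Among the feedback regulators, *Birc3* encodes a ubiquitin ligase of the TNF receptor complexes that also limits the noncanonical pathway. It ran from 491 CPM (mouse 2) to 765 CPM (mouse 1) in neutrophil-like wells and from 43.7 CPM (mouse 4) to 124 CPM (mouse 5) in fibroblast-like wells. Its log2 fold change was 3.09 ± 0.27 (edgeR adjusted p = 9.7e-12). *Tnfaip3*, a ubiquitin-editing enzyme that ends signaling from the TNF receptor and Toll-like receptors, had a narrower gap. It was at 541 CPM or more in the neutrophil-like wells of each mouse, while in fibroblast-like wells it was spread from 24.6 CPM (mouse 4) to 482 CPM (mouse 2). Accordingly the ratio within a mouse varied from 1.41 to 22.0 times, and the log2 fold change was 2.14 ± 0.39 (edgeR adjusted p = 1.2e-05). *Tnip1*, which binds ubiquitin chains together with the *Tnfaip3* product, was measured at 95.4 to 301 CPM against 34.4 to 92.5 CPM (log2 fold change 1.82 ± 0.31, edgeR adjusted p = 3.8e-06). The lowest of these neutrophil-like sums, that of mouse 4, rested on 3 counts.

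The subunits differed less, apart from *Nfkb2*. *Nfkb2*, whose precursor is processed to the partner of *Relb* in the noncanonical pathway, had 256 to 519 CPM in neutrophil-like and 49.3 to 82.5 CPM in fibroblast-like wells (log2 fold change 2.61 ± 0.26, edgeR adjusted p = 1.1e-10). *Rela*, the main activating subunit of the canonical pathway, was higher in the neutrophil-like wells of 6 of 6 mice, but the ranges of 106 to 264 CPM and 73.7 to 123 CPM overlapped. Its log2 fold change was 1.06 ± 0.27 (edgeR adjusted p = 0.00081), and with no filter on low counts it was 0.53 with an adjusted p of 0.19. *Nfkb1*, which encodes the common partner of *Rela*, was higher in 5 of 6 mice, at 78 to 355 CPM against 87.3 to 327 CPM (log2 fold change 0.94 ± 0.28, edgeR adjusted p = 0.0036). Its call was lost with DESeq2 (adjusted p = 0.065), with no filter on low counts (0.33) and with no replicate block (0.059). *Relb*, the activating subunit of the noncanonical pathway, had no count in the neutrophil-like wells of mice 1 and 4, where a count of 0 allows up to 82.0 and 95.4 CPM. The other mice had 61.3 to 95.8 CPM in neutrophil-like wells, on 6 to 29 counts, and all mice had 25.9 to 49.8 CPM in fibroblast-like wells. The *Relb* call (log2 fold change 0.93 ± 0.41, edgeR adjusted p = 0.039) was lost with library size scaling, DESeq2, no filter, the other gate, mice with at least 20 wells of each class, and without mouse 2 or mouse 5, with adjusted p from 0.085 to 0.47. The plot of fitted changes places these values beside the other comparisons.

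**Figure D2:**
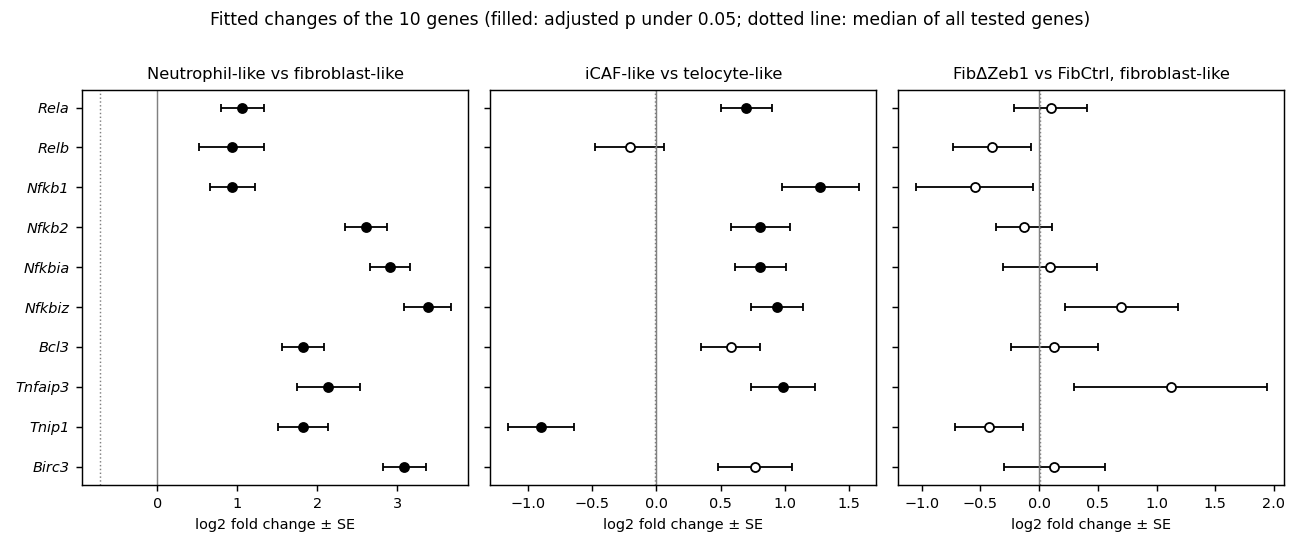
Fitted log2 fold change with its standard error for each gene in 3 comparisons (edgeR; filled points have an adjusted p under 0.05, and the dotted line is the median over all tested genes). All 10 points are filled in the comparison of neutrophil-like with fibroblast-like wells, 7 in that of iCAF-like with telocyte-like wells, and none in that of FibΔZeb1 with FibCtrl fibroblast-like wells. The horizontal axes differ between panels.

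The promoters of the 10 genes were read for the κB consensus, the 10-base element that NF-κB dimers bind. RefSeq promoters of GRCm38.p6 (300 bases, 250 before and 50 after a start site) matched 7 of the 10 genes, and *Relb*, *Nfkb1* and *Nfkbiz* had no entry. A match on either strand was found in 5 of these 7 genes and in 7 of their 10 promoter windows. Among all 32817 promoter windows read, which do not cover every chromosome, 8.46% held a match. Windows of 1 gene are not independent, since those of *Nfkb2* start sites 2 and 3 overlap and share a match. *Rela* and *Birc3* held none in these windows. The upstream sequences of *Nfkbia* and *Tnip1* are given because each has a single stretch close to its start site, with the matched bases in capitals. They lie on the minus strand at chr12:55492648-55492897 and chr11:54962941-54963190.
Nfkbia: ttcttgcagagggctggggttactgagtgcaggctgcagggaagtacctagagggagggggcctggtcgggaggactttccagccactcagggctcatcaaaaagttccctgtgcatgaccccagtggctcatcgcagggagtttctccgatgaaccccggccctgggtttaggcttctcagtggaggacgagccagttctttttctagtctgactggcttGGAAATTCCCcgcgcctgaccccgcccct
Tnip1: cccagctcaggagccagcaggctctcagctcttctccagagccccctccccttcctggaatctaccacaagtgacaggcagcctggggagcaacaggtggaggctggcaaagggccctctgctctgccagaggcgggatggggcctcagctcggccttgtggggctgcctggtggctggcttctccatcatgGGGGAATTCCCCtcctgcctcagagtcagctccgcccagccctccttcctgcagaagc
In *Nfkbia* the match begins 29 bases before the start site. In *Tnip1* 3 overlapping matches form 1 stretch that begins 58 bases before it. For *Nfkb2*, *Tnfaip3* and *Bcl3* only the 30 bases around matches are given, since annotated exons reach into most of these windows. For *Nfkb2*, which has 3 start sites, those at start site 1 are shown, and 2 further stretches at its other start sites are not. They lie at chr19:46304688-46304717 and chr19:46304716-46304745 (plus strand), chr10:19015403-19015432 and chr10:19015516-19015545 (minus strand) and chr7:19822734-19822763 (minus strand).
Nfkb2, from 39 bases before start site 1: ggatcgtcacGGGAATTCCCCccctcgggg
Nfkb2, from 11 bases before start site 1: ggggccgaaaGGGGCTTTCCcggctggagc
Tnfaip3, from 12 bases before start site 1: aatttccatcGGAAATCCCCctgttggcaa
Tnfaip3, from 125 bases before start site 1: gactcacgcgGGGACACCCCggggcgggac
Bcl3, at base 3 of the transcript: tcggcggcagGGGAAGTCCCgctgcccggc
A match describes the letters of these windows, and binding was not measured. The 10 genes were taken by name and are no random draw from all promoters. *Rela* and *Birc3*, with no match in the window, were also higher in neutrophil-like wells. Any part of the matches in the levels was not tested.

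In GENCODE vM21 (GRCm38) *Nfkbia* spans 55489410 to 55492647 on chromosome 12, *Nfkbiz* 55811375 to 55838899 on chromosome 16, *Tnfaip3* 19000910 to 19015657 on chromosome 10 and *Birc3* 7848699 to 7873186 on chromosome 9, and no annotated gene overlaps any of these 4. *Rela* spans 5637483 to 5648130 on chromosome 19 and *Relb* 19606217 to 19629438 on chromosome 7, also without an overlapping gene. *Nfkb2* (46304320 to 46312385 on chromosome 19), *Bcl3* (19808462 to 19822770 on chromosome 7) and *Tnip1* (54910785 to 54962917 on chromosome 11) overlap genes on the other strand, and *Nfkb1* (135584655 to 135691547 on chromosome 3) overlaps 1 on its own strand. Reads that such genes share with a member could not be separated here. *Birc3* also has a close paralog, *Birc2*, which was counted on its own.

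In single wells the difference was seen across the neutrophil-like class rather than in a few wells. Each well was thinned to 1000 transcripts, which left out 128 of 436 neutrophil-like wells and 35 of 594 fibroblast-like wells as too shallow. The median was then 8 *Nfkbia* transcripts in neutrophil-like wells (10th to 90th percentile 2 to 16), against 1 in fibroblast-like wells (0 to 4). Per mouse the neutrophil-like median ran from 5.5 (mouse 4) to 8, and the fibroblast-like median from 0 (mice 4 and 6) to 2 (mouse 3). For *Nfkbiz* the medians over all wells were 4 and 0, and per mouse they ran from 1 (mouse 4) to 4 (mice 3 and 6, which held most of these wells) in neutrophil-like and from 0 to 0.5 in fibroblast-like wells. Without thinning, the top 10% of neutrophil-like wells held 24.9% of the *Nfkbia* counts, and the top 10% of fibroblast-like wells 35.9%. The plot of single wells shows the 3 classes side by side.

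**Figure D3:**
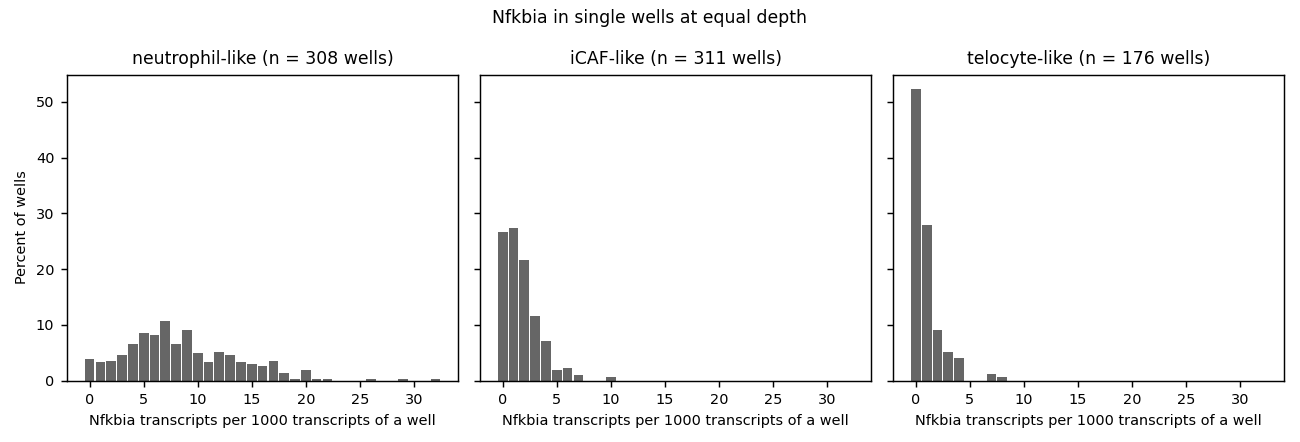
Percent of wells (vertical axis) by number of *Nfkbia* transcripts after each well was thinned to 1000 transcripts (horizontal axis), for 308 neutrophil-like, 311 iCAF-like and 176 telocyte-like wells of all mice. Neutrophil-like wells spread around a median of 8, while iCAF-like and telocyte-like wells have medians of 1 and 0.

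Markers of each class were also read in the sums of the other, and the gate, which uses these markers, limits what remains. The 10 neutrophil markers summed to 122 to 463 CPM in fibroblast-like wells, which was 0.102% to 0.401% of their sum in neutrophil-like wells of the same mouse. At that ratio neutrophil RNA would give 0.51% to 2.8% of the *Nfkbia* measured in fibroblast-like wells. Among mice with at least 10 wells without subtype markers, neutrophil markers in these wells ran from 241 CPM (mouse 5) to 2597 CPM (mouse 2). The part of such RNA in the levels was not tested. In the other direction, the fibroblast markers in neutrophil-like wells had 3.36% to 12.6% of their level in fibroblast-like wells. Of the 14 genes that tissue dissociation induces, such as *Fos*, *Jun* and *Hspa1b*, 4 were higher and 7 lower in neutrophil-like wells. Of all 3932 genes tested 27.3% were called higher and 48.8% lower, so these counts are near the share over all genes. The 5 with the smallest p were all lower, *Hspa1b* (log2 fold change -3.41), *Fos* (-1.95), *Jun* (-2.0), *Egr1* (-2.08) and *Fosb* (-1.79). *Fos* was at 775 ± 184 CPM (SD, n = 6) in neutrophil-like and 3446 ± 1120 CPM in fibroblast-like wells. Their part in the result was not tested.

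Other genes of the pathway were taken from lists. Of 33 sensors and kinases, 17 were tested in neutrophil-like against fibroblast-like wells, and 10 were higher and 3 lower. Of all 3932 genes tested 27.3% were called higher and 48.8% lower. The 5 with the smallest p were *Tlr2*, the receptor of bacterial lipopeptides (551 ± 103 against 13.5 ± 7.7 CPM), the kinase *Irak2* (320 ± 76.3 against 19.4 ± 7.8 CPM), the interleukin-1 receptor chain *Il1rap* (265 ± 68.7 against 22.9 ± 7.9 CPM), the TNF receptor *Tnfrsf1b* (715 ± 160 against 71.4 ± 22.4 CPM) and *Il1r1*. *Il1r1*, the signaling receptor of interleukin-1, was the one of these 5 that was lower, at 8.4 ± 12.0 CPM against 135 ± 33.5 CPM (log2 fold change -4.23 ± 0.53, edgeR adjusted p = 2e-08). The kinase genes *Chuk* and *Ikbkb*, which encode the catalytic subunits of the IκB kinase complex, did not pass (log2 fold changes -0.37 and 0.37, edgeR adjusted p = 0.42 and 0.41).

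Of 22 other subunits and inhibitors 13 were tested, 10 were higher and none was lower, beside 27.3% and 48.8% of all tested genes. The nuclear IκB gene *Nfkbid* had 1106 ± 268 CPM in neutrophil-like and 11.3 ± 5.8 CPM in fibroblast-like wells (n = 6 mice each; log2 fold change 6.89 ± 0.34, edgeR adjusted p = 4.1e-18). This exceeded the fold change of each of the 10 genes described. *N4bp1*, an inhibitor that is cut upon death receptor or Toll-like receptor signaling, *Nfkbie*, another IκB gene, *Zc3h12a*, an RNase that degrades cytokine transcripts, and the deubiquitinase *Cyld* followed, with log2 fold changes of 4.95, 3.73, 2.55 and 2.2.

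Of 32 target genes 23 were tested, 10 were higher in neutrophil-like wells and 8 lower, beside 27.3% and 48.8% of all tested genes. The 5 with the smallest p were all higher, namely the cytokine genes *Il1b* (11455 ± 1238 against 19.2 ± 12.3 CPM), *Tnf* (305 ± 89.7 against 5.1 ± 5.8 CPM) and *Il1a* (192 ± 41.2 against 5.6 ± 8.8 CPM), the neutrophil chemokine *Cxcl2* (7029 ± 1203 against 168 ± 114 CPM) and the iron-binding *Lcn2* (2504 ± 647 against 122 ± 107 CPM). *Cxcl1*, *Ccl2*, *Ccl7*, *Cxcl5*, *C3*, *Cfb*, *Vcam1* and *Saa3* were the 8 lower genes. They are named because the count of lower genes is small, after their values were seen. They encode chemokines, complement factors, an adhesion molecule and an acute-phase protein.

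Within the fibroblast-like wells, 6 of the 10 genes were higher in iCAF-like than in telocyte-like wells and *Tnip1* was lower (edgeR with the mouse as block, mice 1, 2, 4 and 5 with at least 10 wells of each subtype). Of 7845 genes tested, 7.02% were called higher and 6.0% lower (13.0% in all), and with library size scaling the 551 higher and 471 lower calls became 418 and 569. The median log2 fold change was 0.79 over the 10 genes and -0.01 over all genes. This comparison depended on the animals. Without mouse 1 none of the 10 genes passed, and with all 6 mice (at least 5 wells of each subtype) only *Nfkbiz* and *Tnip1* passed. With DESeq2 4 passed, all higher, and with library size scaling 5 passed, 4 of them higher. All 4 mice were higher in iCAF-like wells for 6 of the 10 genes, beside 11.2% of tested genes, and lower for *Tnip1*, beside 21.0%. The ranges of both subtypes did not overlap for *Nfkb1* and *Nfkb2*, both higher, beside 6.0% of tested genes (10.8% lower). The exact sign-flip test over 4 mice cannot go below p = 0.125, and it reached this value for 7 of the 10 genes.

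*Nfkbiz* was measured at 476, 564, 345 and 874 CPM in iCAF-like wells of mice 1, 2, 4 and 5, and at 238, 426, 146 and 526 CPM in telocyte-like wells of the same mice. Every mouse was higher in iCAF-like wells, by 1.32 to 2.37 times, although the ranges overlapped. The log2 fold change was 0.94 ± 0.20 (edgeR adjusted p = 0.0065), and 1.30 with all 6 mice. *Nfkbia* was at 1908, 1780, 727 and 1820 CPM against 1045, 1065, 702 and 864 CPM (log2 fold change 0.81 ± 0.20, edgeR adjusted p = 0.017). Mouse 4 stood apart from the other 3 here, with a ratio of 1.04.

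*Tnfaip3* was at 420, 539, 25.1 and 507 CPM against 172, 428, 23.6 and 204 CPM (log2 fold change 0.99 ± 0.25, edgeR adjusted p = 0.017). Mouse 4 had next to none of it in either subtype. *Tnip1* went the other way, with 41.3, 33.7, 18.8 and 28.7 CPM in iCAF-like and 77.8, 73.6, 84.6 and 32.2 CPM in telocyte-like wells (log2 fold change -0.90 ± 0.26, edgeR adjusted p = 0.034). It was lower in iCAF-like wells of 4 of 4 mice, and in mouse 5 by little. The iCAF-like value of mouse 4 rested on 3 counts. The *Tnip1* call was lost when mouse 1, mouse 2 or mouse 4 was left out in turn.

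Of the subunits, *Nfkb1* had 438, 155, 119 and 176 CPM in iCAF-like and 94.0, 95.6, 112 and 64.4 CPM in telocyte-like wells (log2 fold change 1.28 ± 0.30, edgeR adjusted p = 0.013). The value of mouse 1 was more than 2 times that of any other mouse, and without it the log2 fold change was 0.80 (adjusted p = 0.11). *Rela* (87.8 to 150 against 64.9 to 91.2 CPM) and *Nfkb2* (77.3 to 97.4 against 32.2 to 68.8 CPM) passed with log2 fold changes of 0.70 ± 0.20 and 0.81 ± 0.23 (edgeR adjusted p = 0.034 and 0.036). *Birc3* (log2 fold change 0.77 ± 0.29), *Bcl3* (0.58 ± 0.23) and *Relb* (-0.21 ± 0.27) did not pass (edgeR adjusted p = 0.12, 0.13 and 0.73). The plot of subtype pairs also shows mice 3 and 6, which had only 7 iCAF-like wells each and did not enter the fit.

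**Figure D4:**
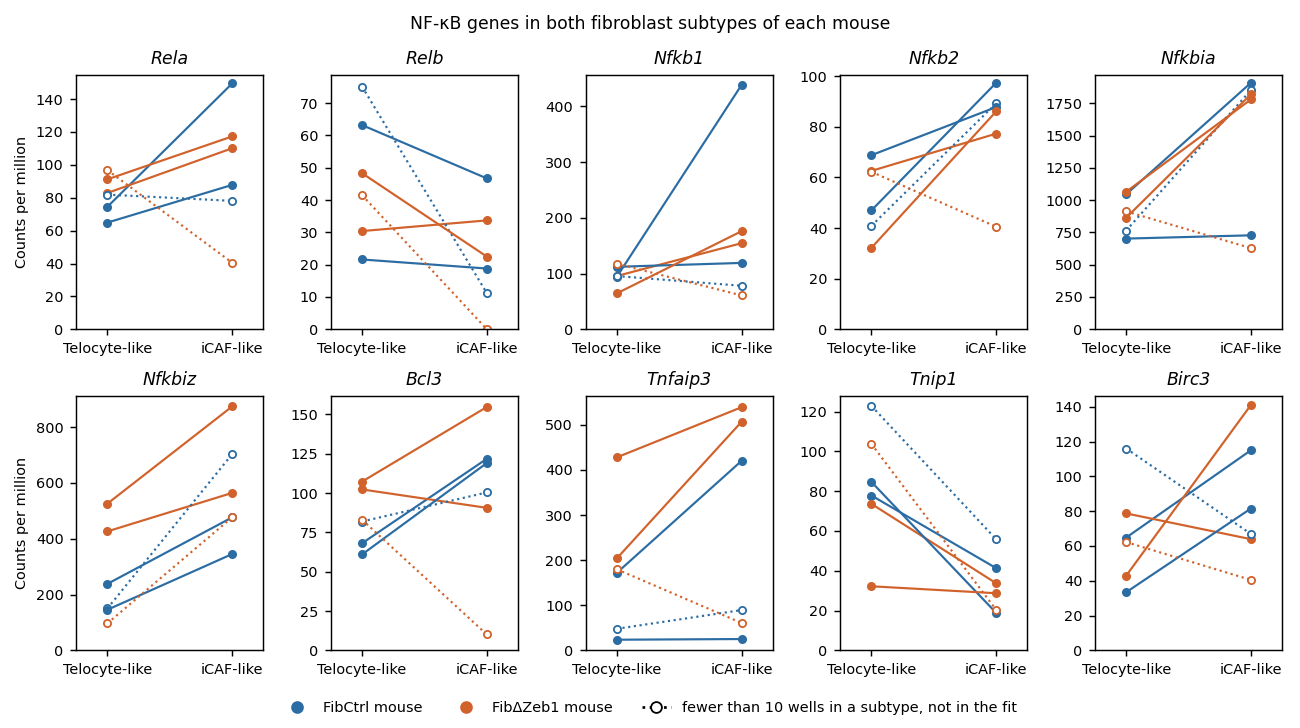
Level of each gene in CPM (linear axis from 0) in telocyte-like and iCAF-like wells, with a line joining both subtypes of 1 mouse, blue for FibCtrl and orange for FibΔZeb1. Solid lines are the 4 mice in the fit and dotted lines are mice 3 and 6. The solid lines of *Rela*, *Nfkb1*, *Nfkb2*, *Nfkbia*, *Nfkbiz* and *Tnfaip3* rise to iCAF-like wells and those of *Tnip1* fall, while the dotted line of mouse 6 falls for every gene except *Nfkbiz*.

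Of the 14 dissociation genes 9 were higher in iCAF-like wells and none was lower, beside 7.02% and 6.0% of all tested genes. *Nr4a1* (896 ± 248 against 289 ± 117 CPM, n = 4) changed most of the dissociation genes. The summed level of the dissociation genes was 12391 to 27855 CPM in iCAF-like and 12528 to 17754 CPM in telocyte-like wells of these mice. Mouse 4 had the lowest sum of these genes in both. Their part in the result was not tested. Neutrophil markers were at 69.0 to 256 CPM in iCAF-like and 79.4 to 140 CPM in telocyte-like wells. Of 22 target genes tested 10 were higher in iCAF-like wells, among them *Il6* (282 ± 146 against 38.5 ± 21.2 CPM), and 3 were lower. The lower genes were *Lcn2* (58.9 ± 85.4 against 160 ± 118 CPM, log2 fold change -2.07 ± 0.39, edgeR adjusted p = 0.0033), *Sod2* and *Saa3*. Of 25 sensors and kinases, *Irak3* and *Map3k8* were higher and *Il1r1* was lower (94.9 ± 24.1 against 246 ± 62.1 CPM, log2 fold change -1.19 ± 0.24, edgeR adjusted p = 0.0042). None of the other subunits and inhibitors passed.

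Against the 106 wells without subtype markers, none of the 8 genes tested passed in iCAF-like wells (none at an unadjusted p under 0.05; DESeq2 also none), where 8.57% of 2520 genes were called higher and 2.9% lower (11.5% in all). In telocyte-like wells none of 9 passed (1 at an unadjusted p under 0.05 with either tool), with 6.06% of 2886 genes called higher and 1.63% lower (7.69% in all). That 1 gene was *Nfkb2*, with a log2 fold change of -1.19 ± 0.39 (edgeR adjusted p = 0.096).

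Pericyte-like wells, from mural cells of vessels, and epithelial-like wells were compared with fibroblast-like wells in 3 mice each, and none of the 10 genes passed edgeR's test in either. In mice 1, 2 and 4, none of 10 genes passed in pericyte-like wells (none at an unadjusted p under 0.05; DESeq2 also none), where 7.41% of 7761 genes were called higher and 8.5% lower (15.9% in all). *Nfkbiz* was higher in 3 of 3 mice, at 566 ± 166 CPM (SD, n = 3), with a log2 fold change of 0.57 ± 0.27 (edgeR adjusted p = 0.20). *Birc3* was lower in 3 of 3 mice, at 45.0 ± 14.9 CPM (log2 fold change -0.55 ± 0.34, edgeR adjusted p = 0.37). In mice 4, 5 and 6, none of 9 genes passed in epithelial-like wells (1 at an unadjusted p under 0.05; DESeq2 none), where 3.06% of 5585 genes were called higher and 8.81% lower (11.9% in all). That 1 gene was *Bcl3*, at 47.7 ± 11.2 CPM (log2 fold change -0.96 ± 0.38, edgeR adjusted p = 0.18). *Birc3* was at 36.5 ± 25.8 CPM there (log2 fold change -1.17 ± 0.75, edgeR adjusted p = 0.42). *Tnfaip3* had a log2 fold change of 0.59 ± 0.95 in epithelial-like wells, which became 1.80 (edgeR adjusted p = 0.0002) without mouse 5.

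Among neutrophil-like, fibroblast-like, pericyte-like and epithelial-like wells, the mean level of each gene was highest in neutrophil-like wells, for *Relb* by less than its SD. *Nfkbia* was at 7846 ± 1247 CPM there (n = 6), 1226 ± 401 CPM in fibroblast-like (n = 6), 1056 ± 602 CPM in pericyte-like (n = 3) and 827 ± 167 CPM in epithelial-like wells (n = 3). Below the first, neighbors differed by less than the larger of their SDs. For *Nfkbiz* the levels were 3525 ± 598, 414 ± 218, 566 ± 166 and 342 ± 162 CPM in the same order of classes, and for *Tnfaip3* 750 ± 198, 251 ± 192, 226 ± 98.5 and 201 ± 135 CPM. *Relb* had 49.2 ± 39.9, 35.8 ± 10.7, 39.9 ± 11.0 and 47.6 ± 39.6 CPM, which differ from each other by less than the SD of the neutrophil-like sums.

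Loss of *Zeb1* was compared within fibroblast-like wells of 3 FibΔZeb1 and 3 FibCtrl mice, with all subtypes pooled. Of these wells 113 of 187, 7 of 19 and 11 of 66 were iCAF-like in FibCtrl mice 1, 3 and 4. In FibΔZeb1 mice 2, 5 and 6 they were 80 of 172, 94 of 133 and 7 of 17. The part of this make-up in the pooled levels was not tested. None of the 10 genes passed in edgeR's test, nor did any of the 8928 genes tested (0.0% called; 127 genes at an unadjusted p under 0.05, none of them among the 10; DESeq2 called 3 genes, none of them among the 10). The mice of both genotypes overlapped for each of the 10 genes, while 6.5% of tested genes did not (3.05% higher and 3.45% lower in FibΔZeb1). An exact permutation test with 3 mice against 3 cannot go below p = 0.10.

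The highest fold change was that of *Tnfaip3*, with 335, 105 and 24.6 CPM in FibCtrl mice 1, 3 and 4 and 482, 436 and 121 CPM in FibΔZeb1 mice 2, 5 and 6. FibCtrl mouse 1 lay above FibΔZeb1 mouse 6, and the spread within each genotype was as wide as the difference (log2 fold change 1.12 ± 0.82, edgeR adjusted p = 1.0; exact permutation p = 0.2). Leaving out 1 mouse in turn gave 0.61 to 2.65, the highest without mouse 1. *Tnfaip3* was detected in 18.2% of the fibroblast-like wells of mouse 4 and in 41.2% to 64.5% of those of the other mice. *Nfkbiz* had 398, 374 and 187 CPM in FibCtrl and 502, 792 and 232 CPM in FibΔZeb1 mice (log2 fold change 0.70 ± 0.48, edgeR adjusted p = 1.0; exact permutation p = 0.4).

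*Nfkbia* had a mean of 1196 CPM in FibCtrl and 1257 CPM in FibΔZeb1 mice (log2 fold change 0.09 ± 0.40). *Rela* (92.5 and 98.8 CPM), *Bcl3* (93.8 and 96.4 CPM), *Birc3* (78.7 and 81.7 CPM) and *Nfkb2* (76.2 and 67.0 CPM) had log2 fold changes from -0.13 to 0.13, with standard errors of 0.24 to 0.43. *Tnip1* (70.9 and 51.0 CPM), *Relb* (41.3 and 30.2 CPM) and *Nfkb1* (176 and 123 CPM) were lower in mean, at -0.43 ± 0.29, -0.40 ± 0.33 and -0.55 ± 0.50. The *Nfkb1* mean of FibCtrl mice rested on mouse 1 (327 CPM, against 92.5 and 108 CPM), in which 19 of 187 wells held 57.3% of the counts, and without mouse 1 the log2 fold change was 0.38.

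Of the lists, 30 sensors and kinases, 16 other subunits and inhibitors, 25 target genes and 14 dissociation genes were tested between genotypes in fibroblast-like wells, and none passed. At an unadjusted p under 0.05 there was 1, the chemokine *Cxcl5*, with 204 ± 21.7 CPM in FibΔZeb1 and 463 ± 244 CPM in FibCtrl mice (n = 3 each; log2 fold change -1.16 ± 0.39, edgeR adjusted p = 1.0). The target genes with the next smallest p were *Ier3* (log2 fold change 0.52 ± 0.24), *Cxcl2* (-0.95 ± 0.51), *Mmp3* (1.35 ± 0.76) and *Csf1* (-0.59 ± 0.39). Among sensors and kinases these were *Map3k8* (0.88 ± 0.41), *Irak4* (0.58 ± 0.36), *Irak2* (-0.63 ± 0.39), *Il1r1* (-0.41 ± 0.26) and *Myd88* (0.68 ± 0.54). Among other subunits and inhibitors they were *Birc2* (0.55 ± 0.28), *Zfp36* (0.39 ± 0.43), *Otud7b* (-0.18 ± 0.20), *Zc3h12a* (-0.20 ± 0.23) and *Ppp4c* (-0.24 ± 0.28). Among the dissociation genes they were *Hspa1b* (-0.93 ± 0.52), *Ier2* (0.44 ± 0.30), *Hspa1a* (-0.66 ± 0.50), *Fosb* (0.58 ± 0.49) and *Junb* (0.36 ± 0.34).

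The genotypes were also set side by side in telocyte-like wells, a comparison added after values had been seen. Mice 1, 3 and 4 (FibCtrl) and mice 2 and 5 (FibΔZeb1) had at least 10 such wells. *Nfkbiz*, which promotes a later set of NF-κB targets, was at 238, 150 and 146 CPM in FibCtrl and at 426 and 526 CPM in FibΔZeb1 mice. *Tnfaip3*, the feedback ubiquitin editor, was at 172, 47.8 and 23.6 CPM against 428 and 204 CPM. *Tnip1* was at 77.8, 123 and 84.6 CPM against 73.6 and 32.2 CPM. *Rela* and *Bcl3* also did not overlap, and were higher in FibΔZeb1 mice. Thus 4 of the 10 genes did not overlap in the higher direction and 1 in the lower, beside 7.29% and 13.2% of 6945 genes with a mean of at least 20 CPM. With 2 mice against 3 an exact permutation test cannot go below p = 0.1, the value for *Nfkbiz* and *Tnip1*. FibΔZeb1 mouse 6, with 8 telocyte-like wells, had 96.8 CPM of *Nfkbiz* and 104 CPM of *Tnip1*, both on the side of the FibCtrl mice. Its *Tnfaip3* (180 CPM), *Rela* (96.8 CPM) and *Bcl3* (83.0 CPM) lay above the 3 FibCtrl mice, for *Tnfaip3* and *Bcl3* by little. The summed dissociation genes did not overlap in these telocyte-like sums either, at 14618, 10530 and 12528 CPM in FibCtrl and 16532 and 17754 CPM in FibΔZeb1 mice 2 and 5, and mouse 6 was lowest at 7289 CPM. Their part in these differences was not tested. In iCAF-like wells *Nfkbiz* and *Tnfaip3* were higher without overlap in mice 2 and 5 than in mice 1 and 4. *Nfkb2* was lower without overlap, at 77.3 and 86.1 against 97.4 and 87.8 CPM, and the rest of the 10 genes overlapped. *Nfkbiz* was at 564 and 874 against 476 and 345 CPM, and *Tnfaip3* at 539 and 507 against 420 and 25.1 CPM. Mice 3 and 6, with 7 iCAF-like wells each, had 703 and 476 CPM of *Nfkbiz* and 89.3 and 60.8 CPM of *Tnfaip3*. In wells without subtype markers *Nfkbiz*, *Tnfaip3*, *Rela*, *Nfkb2*, *Nfkbia*, *Bcl3* and *Birc3* did not overlap, all higher in mice 2 and 5. *Relb*, *Nfkb1* and *Tnip1* overlapped. These wells were shallow, with a median of 524 transcripts in mouse 2. The share over all genes was not counted in iCAF-like wells or in wells without subtype markers, so nothing is concluded from these separations.

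In neutrophil-like wells none of the 9 genes tested passed between genotypes, nor did any of 1404 genes (0.0% called; 53 genes at an unadjusted p under 0.05, none of them among the 9; DESeq2 called none). *Relb* had too few counts to be tested. *Nfkbia* had a mean of 7202 CPM in FibCtrl and 8489 CPM in FibΔZeb1 mice, and *Nfkbiz* 3318 and 3732 CPM. The greatest fitted changes were those of *Nfkb1* (286 and 203 CPM; log2 fold change -0.58 ± 0.45) and *Rela* (147 and 211 CPM). *Birc3* had 660 and 534 CPM (log2 fold change -0.32 ± 0.28), and the mice of both genotypes overlapped for each of the 10 genes, against 7.34% of tested genes that did not (3.7% higher and 3.63% lower). The difference between the genotype effects of neutrophil-like and fibroblast-like wells was tested itself, and none of the 10 genes passed (3 of 5387 genes did, 0.0557%, with 0.0371% higher and 0.0186% lower; DESeq2 called none; none of the 10 had an unadjusted p under 0.05). The median of this difference over all genes was 0.41, and it was 0.24 with library size scaling. *Tnfaip3* had the lowest p of the 10, with a difference of -1.15 ± 0.68 (edgeR adjusted p = 1.0).

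Over the 25 sums of mouse and class with at least 10 wells, the other genes whose log2 level followed that of *Nfkbia* most closely among 7156 genes were *Ndel1* (Pearson's r = 0.951), *Mcl1* (0.933), *Kdm6b* (0.929), *Mapkapk2* (0.926) and *Nfe2l2* (0.922). Of the 10 genes themselves, *Nfkbiz* (0.92), *Bcl3* and *Birc3* (both 0.901) were closest to *Nfkbia*, and *Relb* was farthest (0.17). For *Rela* the closest were *Sbno2* (0.78), *Abtb2* (0.776), *Smchd1* (0.749), *St3gal5* (0.746) and *Gadd45b* (0.739). The sums share mice and differ in depth between classes, and these correlations describe them with no test.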

How the data were processed

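The deposited tables of 6 plates were used. The authors aligned reads with bwa to the GRCm38 transcriptome and counted per well with the program of the sequencing provider. The deposited transcript counts are estimated counts, corrected by the authors for molecules that share a barcode, and were rounded after summing. Whole counts of molecular barcodes, also deposited, served as an alternative. Spike-in RNA was left out of all sums. Wells were kept at 100 to 6000 genes and under 10% transcripts of the mitochondrial chromosome. Cells were sorted 1 to a well, and doublets were not searched for.

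A well took the class with the highest share of its markers detected, with at least 3. Counts were summed per mouse and class with at least 10 wells, and these sums, 1 per mouse, were the replicates. Tests used edgeR 4.0.16 (quasi-likelihood, TMM, filterByExpr) in R 4.3.3, adjusted over all genes tested, with DESeq2 1.42.0 as an alternative. The SE of a fitted change was obtained from the log2 fold change and edgeR's test statistic. The scripts were tested on simulated data. Comparisons of classes within mice used the mouse as block, because both sums come from the same animal. Depth was 667891 to 3141934 transcripts in the kept wells of a plate, and limits at a count of 0 (3 counts) cover counting error only.

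The 10 genes, gene lists and tests were chosen with earlier results of these data known. The rule for named genes was all 10 genes in every comparison and, from each list, the 5 with the smallest p in 2 comparisons, neutrophil-like against fibroblast-like wells and genotype in fibroblast-like wells. Fitted values of comparisons with no call are given for the genes that moved most. Alternatives were scaling, tool, filter, count table, least number of wells, mitochondrial genes, gate, *Ptprc* or *Epcam* wells, the block, and leaving out each mouse.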

Additional observations from a re-analysis of the deposited data

Results flagged for a closer look

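In 50 combinations of gene and class with 4 to 6 mice, the highest or lowest mouse was compared with the rest by Dixon's criterion, which chance passes in about 1 of 20 groups. The genotypes hold only 3 mice each, so that the criterion was applied over both. There were 4 such values. *Nfkb1* was highest in fibroblast-like wells of mouse 1, at 327 CPM. *Nfkb2* was lowest in fibroblast-like wells of mouse 6, at 49.3 CPM on 13 counts. *Nfkb2* was highest among the wells without subtype markers in mouse 2, at 242.9 CPM on 13 counts. *Nfkbia* was lowest in iCAF-like wells of mouse 4, at 727.4 CPM on 116 counts and 11 wells.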

How the results depend on the processing

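Between genotypes, no paired analysis was possible because the labels tie no FibCtrl mouse to a FibΔZeb1 mouse by number or litter, while classes were compared within the mouse. The count of 10 genes called between neutrophil-like and fibroblast-like wells stayed between 7 and 10 under each alternative, always higher, with 9 and no replicate block. Between iCAF-like and telocyte-like wells the 7 calls became 5 with library size scaling, 4 with DESeq2, 4 with the other gate, 4 with no replicate block, 2 with at least 5 wells per mouse, and 0 to 6 without 1 mouse in turn, and the cause was not tested. *Nfkbiz* passed in pericyte-like wells when only genes named mt- counted as mitochondrial (1 call), and leaving out 1 mouse gave 0 to 1 call in epithelial-like wells. There *Tnfaip3* (main 0.59) ran from -0.47 to 1.80 without 1 mouse, and was -0.12 with at least 20 wells and -0.20 with no replicate block. In the other comparisons the number of these genes called stayed at 0. Between genotypes in fibroblast-like wells, leaving out 1 mouse turned the sign of *Rela* (-0.12 to 0.47), *Nfkb1* (-0.84 to 0.38), *Nfkb2* (-0.26 to 0.02), *Nfkbia* (-0.20 to 0.40), *Bcl3* (-0.25 to 0.40) and *Birc3* (-0.32 to 0.44), none of them called. Counts over all genes moved by over 1.5 times as follows, the main count first. They were 0 and 3 (DESeq2) for genotype in fibroblast-like wells, 0 and 7 (no filter) or 14 (at least 20 wells, which left 1 FibCtrl mouse, assumed to vary like the FibΔZeb1 mice) in neutrophil-like wells, 2991 and 7535 (no filter) for neutrophil-like wells, 663 and 1736 (no filter) for epithelial-like wells, 289 and 34 (other gate), 186 (without *Ptprc* or *Epcam* wells), 474 (mt- genes) or 975 (no filter) for iCAF-like and 222 and 19, 128, 129 (at least 20 wells) or 666 (no filter) for telocyte-like wells against the rest, 1022 and 1549 (no filter) between the subtypes, and 3 and 0 (DESeq2) or 5 (mt- genes) for the difference between genotype effects. Without 1 mouse the lowest and highest were 779 and 1317 for pericyte-like, 475 and 1544 for epithelial-like wells, 84 and 205 for telocyte-like wells against the rest, 558 and 1036 between the subtypes, 0 and 1 for genotype in neutrophil-like wells, and 1 and 5 for the difference. For iCAF-like wells against the rest, library size scaling turned 216 higher and 73 lower calls into 173 and 118. Shallow neutrophil-like wells limit *Relb* and *Tnip1*, and few wells in mice 3 and 6 limit the subtypes.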

Other observations

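In fibroblast-like wells the summed level of the 10 genes was 1402 CPM in mouse 4 and 1495 CPM in mouse 6, and 2337 to 3508 CPM in the other 4 mice. The sum of the 14 dissociation genes was also lowest in these 2 mice, at 12667 and 11059 CPM, against 18270 to 25016 CPM. Mice 4 and 6 are of different genotypes, and mouse 6 was sequenced in another run.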
